A study of Mus musculus with 10 samples.

Results

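The genes described here are 10 genes listed as epithelial adhesion and claudin genes, followed across 5 groups of samples. They are the claudins Cldn3, Cldn4, Cldn5, Cldn6 and Cldn7, the adhesion genes Epcam and Cdh1, the immunoglobulin-domain gene Hepacam2, and the keratins Krt8 and Krt18. A probe stood for a gene where its annotation gave that gene symbol and no other, and with several such probes the probe with the highest mean log2 level over the 10 arrays was to be used. By this rule 9 of the 10 genes had a probe, 1 each, out of 18069 genes with a named probe on the array, and each of these 9 passed the filter on low signal, which asks for signal above background on the 2 arrays of some group. The probe that lists Krt18 also lists Spcs2, so no value is given for Krt18.

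The measurements are of total RNA on CodeLink Mouse Whole Genome arrays with 1 colour, and each group has 2 arrays. Dox(+) EBs were embryoid bodies of Ainv18 mouse ES cells that carry a doxycycline-inducible bicistronic Pdx1-IRES-Ngn3 construct, grown with 1 µg/ml doxycycline (Dox) from day 4 and harvested on day 13. Dox(−) EBs were EBs of the same engineered line without Dox. Both had activin A at 50 ng/ml from day 2, then BMP4 at 50 ng/ml and bFGF at 10 ng/ml with activin A from day 4, and floated without attachment from day 6. The description field of the labels names an inducible activated Notch4 for this line, in conflict with the other fields. The other groups were βTC6 cells, a mouse insulinoma cell line and thus tumour cells, whole islets, and whole embryonic pancreas (E15.5 pancreas, E15.5 being the embryonic stage), the islets and pancreas being mixtures of cell types. The labels call the 2 samples of each group biological replicates and do not say how separate their cultures or animals were, and give no strain, nor an age for the islets. The paper's text calls the islet cells adult, whereas its supplement heads the islet values with E15.5.

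Tight junctions seal neighbouring epithelial cells near their apical side, and claudins are the membrane-spanning proteins that form their strands and set which ions pass. Adherens junctions lie below them and are held by E-cadherin, the product of Cdh1, while keratins 8 and 18 pair as the intermediate filaments of simple epithelia such as gut, liver and pancreas. In the developing pancreas, cells that switch on Ngn3 leave the epithelial cords as endocrine precursors and later gather into islets.

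Levels are the scaled intensity, in which the median of the array's discovery probes is 1, with replicate 1 given first, and a level of 0.27 is the floor. Every fold is between groups for the same probe, since levels of different probes are not comparable.

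On all arrays 23074 to 25998 probes were above background, and replicate arrays were scaled to the same median. The Dox(+) EB arrays had 25786 and 25975 probes above background and a median signal 2.49 and 2.63 times the local background, against 23498 and 23823 probes and 1.77 and 1.92 times on the Dox(−) EB arrays. The part of this difference in the results below was not tested. The probe for Pdx1 was not above background on any EB array, and the Neurog3 (Ngn3) probe had levels of 0.447 and 0.557 in Dox(+) EBs against 0.458 and 0.521 in Dox(−) EBs (adjusted p = 0.962). Whether either probe lies in the transgene is not given in the sources used here, so these probes do not check the induction. Of the islet endocrine markers, 10 of 10 with a probe rose in Dox(+) EBs. The paper lists all 10 as raised with Dox in day 13 EBs. Their rise was thus known beforehand and is no separate check of the labels. Their summed level was 512 to 588 in Dox(+) EBs against 7.29 to 7.37 in Dox(−) EBs. That sum was 1295 to 1304 in βTC6 cells, 1236 to 1687 in islets, where 5 of the 10 probes were saturated on both arrays and 1 of these, Gcg, had no value on replicate 2, and 184 to 192 in E15.5 pancreas.

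All 9 genes differed between the EBs with and without Dox, as did 43.2% of all probes. Cldn3, Cldn4, Cldn5, Cldn6, Cldn7, Epcam, Cdh1 and Krt8 were lower in Dox(+) EBs than in Dox(−) EBs, by 1.53-fold to 4.38-fold, and Hepacam2 was higher. Of the 28109 probes tested, 22.5% were lower and 20.7% were higher in Dox(+) EBs, so a call alone is common here, and the 8 lower and 1 higher of 9 are to be read against these shares. The median log2 difference of the 9 genes was -1.33, whereas that of all probes tested was -0.03. The 2 Dox(+) values lay wholly above or below the 2 Dox(−) values for all 9 genes, as they did for 69.9% of all probes tested. In these mixed cultures, fewer cells of a type and less RNA per cell cannot be told apart.

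Cldn3 and Cldn4 are neighbouring genes on chromosome 5, transcribed from opposite strands, and both proteins are claudins of epithelia that also serve as receptors for a clostridial enterotoxin. Cldn3 had levels of 6.31 and 6.73 in Dox(+) EBs, against 29.6 and 27.5 in Dox(−) EBs, a difference of 4.37-fold (log2 -2.13, SE 0.09, n = 2 each, adjusted p = 2.5e-08 by limma). Elsewhere βTC6 cells had 1.85 and 1.77, islets had 18.8 and 19.3, and E15.5 pancreas had 71.4 and 79.3. No 2 groups overlapped, and every neighbouring pair in the order, from E15.5 pancreas at the top through Dox(−) EBs, islets and Dox(+) EBs to βTC6 cells, differed past the threshold. Dox(+) EBs were thus 11.5-fold below E15.5 pancreas and 2.92-fold below islets.

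Cldn4 fell by a similar amount with Dox and was ordered in another way across tissues. It measured 9.84 and 7.52 in Dox(+) EBs against 35.6 and 39.8 in Dox(−) EBs, which is 4.38-fold lower (log2 -2.13, SE 0.13, adjusted p = 4.2e-07). The probe was at background on both βTC6 arrays, while islets had 13.2 and 14.5 and E15.5 pancreas had 10.8 and 10.8. Dox(−) EBs stood highest here, and Dox(+) EBs were below islets by 1.61-fold (adjusted p = 0.00082) and at least 27.4-fold above βTC6 cells. Against E15.5 pancreas the Dox(+) EBs differed by a log2 of -0.33, which did not pass the threshold in the fit of all arrays (adjusted p = 0.0521) but did under quantile normalization (log2 -0.55, adjusted p = 0.0033). With 1 array left out at a time, this log2 difference ranged from -0.52, without Dox(+) EB replicate 1, to -0.13.

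Cldn6 is a claudin of embryonic epithelia that is largely silent in adult tissue, and Cldn7 is widespread in simple epithelia, often at the lateral membrane in a complex with Epcam. For Cldn6 the levels were 9.75 and 7.85 in Dox(+) EBs, against 35.4 and 32.0 in Dox(−) EBs, 3.85-fold lower with Dox (log2 -1.95, SE 0.14, adjusted p = 1.2e-06). The βTC6 arrays gave 0.950 and 0.916, the islet arrays 1.12 and 1.20, and the E15.5 pancreas arrays 4.15 and 3.35. Cldn6 was therefore higher in both EB groups than in all the pancreatic material, with Dox(+) EBs 2.34-fold above E15.5 pancreas (adjusted p = 2.2e-05), and its lowest levels, in βTC6 cells and islets, did not differ past the threshold (adjusted p = 0.0679). Cldn9, its neighbour on chromosome 17, had 5.40 and 5.05 in Dox(+) EBs against 6.23 and 7.34 in Dox(−) EBs (1.29-fold lower, adjusted p = 0.0174).

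Cldn7 reached 36.4 and 28.9 in Dox(+) EBs, against 128 and 117 in Dox(−) EBs, a 3.79-fold fall (log2 -1.92, SE 0.15, adjusted p = 2.9e-06). In βTC6 cells it was low at 1.22 and 1.66, while islets had 38.6 and 33.1 and E15.5 pancreas had 53.2 and 53.6. With Dox, the EB level overlapped that of islets (log2 -0.14, SE 0.15, adjusted p = 0.448), and the sign of this small difference changed without Dox(+) EB replicate 2. It remained 1.65-fold below E15.5 pancreas and 22.8-fold above βTC6 cells.

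Cldn5 is best known as the claudin of endothelium, including the blood-brain barrier. It was 5.14 and 4.55 in Dox(+) EBs, against 7.29 and 7.55 in Dox(−) EBs, 1.53-fold lower with Dox (log2 -0.62, SE 0.16, adjusted p = 0.00895). This is the smallest of the 8 falls, and the call was lost without Dox(+) EB replicate 2 (adjusted p = 0.0771) or without Dox(−) EB replicate 2 (adjusted p = 0.0526). For the other 7 falls the highest adjusted p with any 1 array left out was 0.0110, that of Krt8. Both βTC6 arrays were at background, islets had 0.670 and 0.475, and E15.5 pancreas had 3.39 and 3.29. Of 13 endothelium markers with a probe, 3 rose with Dox (Emcn, Cdh5 and Pecam1), 3 fell (Vwf, Plvap and Robo4) and 7 did not pass the test. These counts are near the shares of all probes, 20.7% higher and 22.5% lower. The summed level of these markers was 87.3 to 91.9 in Dox(+) EBs and 92.7 to 98.1 in Dox(−) EBs. In βTC6 cells the sum was 16.6 to 19.1, with Pecam1, Emcn and Cdh5 at the floor, whereas islets had 114 to 118 and E15.5 pancreas had 119 to 122. Marker by marker, Dox(+) EBs were higher than islets for 4 of the 13, lower for 5 and not past the threshold for 4, with a median log2 of -0.13. Of all probes, 36.4% were higher and 31.6% lower in that comparison. The Cldn5 level of islets was 8.57-fold below that of Dox(+) EBs. The part of endothelium in the Cldn5 levels was not tested.

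Epcam is an epithelial surface glycoprotein that is also present on ES cells, and E-cadherin is the calcium-dependent adhesion protein on which epithelial sheets depend. The Epcam levels were 66.2 and 57.4 in Dox(+) EBs, against 148 and 135 in Dox(−) EBs, 2.29-fold lower with Dox (log2 -1.20, SE 0.14, adjusted p = 4.3e-05). βTC6 cells had 5.30 and 7.22, islets 30.3 and 29.7, and E15.5 pancreas 88.2 and 95.6. All neighbours in this order differed past the threshold, so that Dox(+) EBs lay between E15.5 pancreas, 1.49-fold above them, and islets, 2.06-fold below them.

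Cdh1 had 25.0 and 20.3 in Dox(+) EBs, against 44.9 and 48.4 in Dox(−) EBs, a 2.07-fold fall (log2 -1.05, SE 0.14, adjusted p = 0.00014). The levels of βTC6 cells were 3.73 and 4.66, those of islets 53.8 and 45.5, and those of E15.5 pancreas 58.2 and 51.8. Dox(−) EBs, islets and E15.5 pancreas did not differ past the threshold from their neighbours (adjusted p = 0.621 for Dox(−) EBs and islets, 0.374 for islets and E15.5 pancreas), whereas Dox(+) EBs were 2.19-fold below islets and 2.44-fold below E15.5 pancreas. Cdh1 was lowest in βTC6 cells, 5.41-fold below Dox(+) EBs.

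Krt8 measured 27.8 and 20.8 in Dox(+) EBs, against 60.9 and 60.0 in Dox(−) EBs, 2.52-fold lower with Dox (log2 -1.33, SE 0.21, adjusted p = 0.00043). Both EB groups were above the rest, since βTC6 cells had 4.78 and 8.08, islets 2.34 and 2.24, and E15.5 pancreas 5.21 and 5.12. The standard error was the largest of the 9 genes here, and βTC6 cells and E15.5 pancreas overlapped (adjusted p = 0.283). Dox(+) EBs exceeded islets by 10.5-fold and E15.5 pancreas by 4.65-fold.

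Hepacam2 encodes an immunoglobulin-domain protein of the HEPACAM family, and was the 1 gene of the 9 that rose with Dox. The levels were 48.9 and 44.2 in Dox(+) EBs, whereas both Dox(−) EB arrays were at background (0.341 and the floor of 0.27). The rise was at least 153-fold, a bound set by the floored levels of the Dox(−) EB arrays (fitted log2 7.26, SE 0.12, adjusted p = 4.2e-11). The gene was high in βTC6 cells (68.5 and 63.5) and islets (47.9 and 45.9) and lower in E15.5 pancreas (12.0 and 12.9). Dox(+) EBs overlapped islets (log2 -0.01, SE 0.12, adjusted p = 0.950) and were 3.73-fold above E15.5 pancreas (adjusted p = 2.5e-07). Against βTC6 cells they were 1.42-fold lower with median scaling (log2 -0.51, adjusted p = 0.0031) but higher under quantile normalization (log2 0.44, adjusted p = 0.0092), so no direction is given for that pair. Of the 8 other genes, 7 had their lowest mean level in βTC6 cells, the exception being Krt8 with its lowest in islets.

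**Figure D1:**
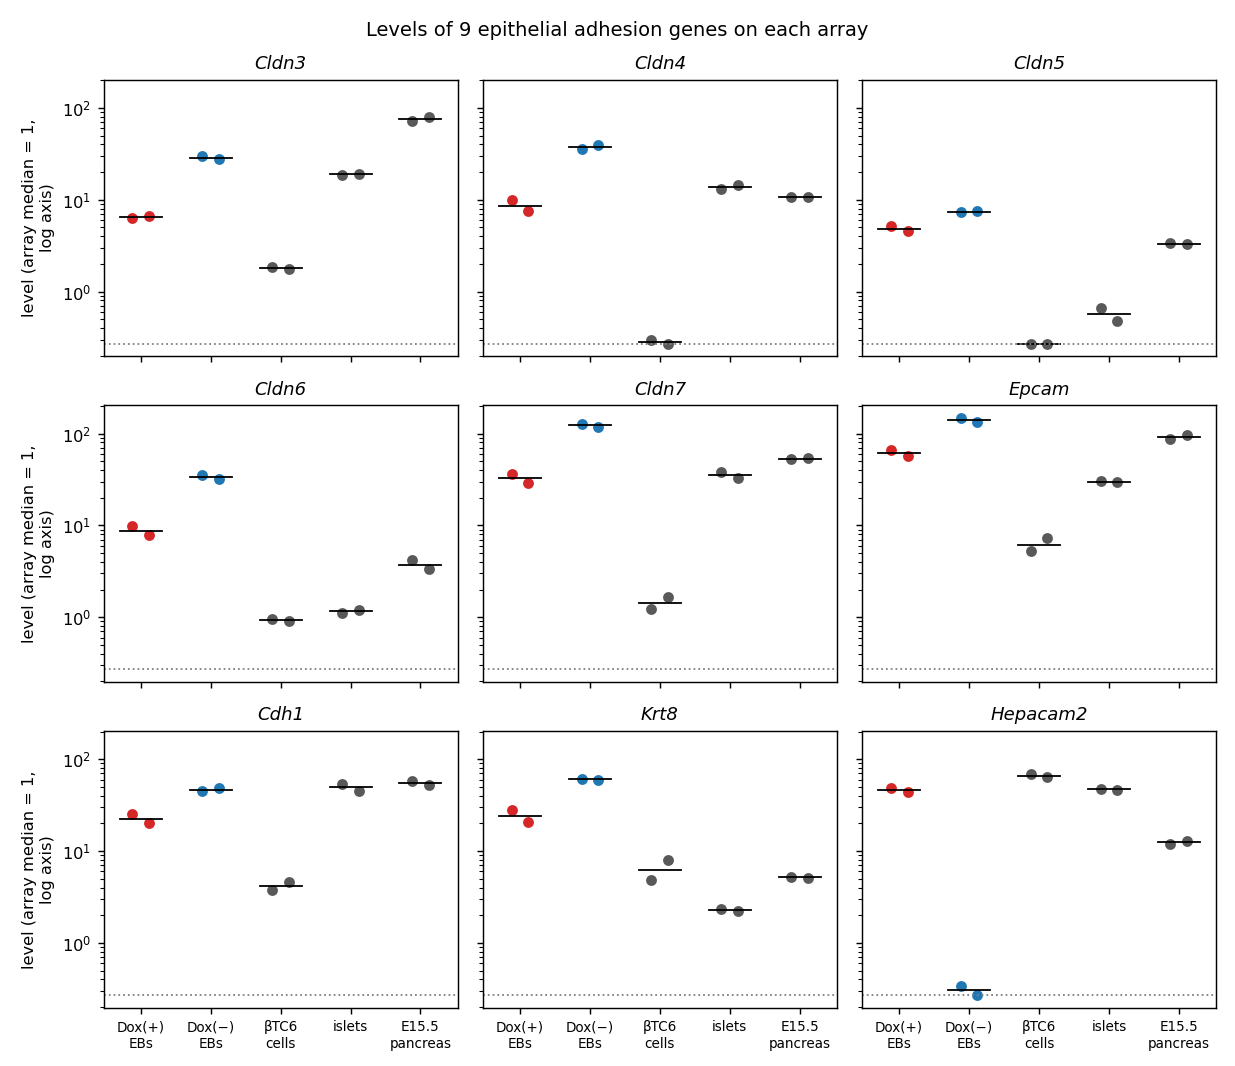
Level of each of the 9 genes on each array (vertical log axis, array median = 1), with Dox(+) EBs in red, Dox(−) EBs in blue and the other 3 groups in grey; points are the 2 arrays of a group, bars their geometric mean, and the dotted line the floor of 0.27. In 8 panels the red points lie below the blue, and for Hepacam2 the Dox(−) EB points lie at background while Dox(+) EBs have 48.9 and 44.2.

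Set against the pancreatic material, the 9 genes gave a different picture for each reference. Slide numbers fall in separate ranges for the EB arrays, the βTC6 and islet arrays, and the pancreas arrays, so slide range and tissue cannot be told apart in any comparison other than Dox(+) with Dox(−) EBs and βTC6 cells with islets. In Dox(+) EBs 8 of the 9 genes were higher than in βTC6 cells and 1, Hepacam2, was lower (higher under quantile normalization), while 25.5% of all probes were higher and 37.4% lower. The folds of the 8 genes were from 3.60-fold for Cldn3 to at least 27.4-fold for Cldn4. Dox(−) EBs also had 8 genes higher and 1 lower than βTC6 cells (28.7% and 37.9% of all probes), and Hepacam2, the lower gene, was at least 217-fold below βTC6 cells there.

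The islet comparison was mixed. Dox(+) EBs were higher than islets for Cldn5, Cldn6, Epcam and Krt8 and lower for Cldn3, Cldn4 and Cdh1, with Cldn7 and Hepacam2 not past the threshold, beside 36.4% of all probes higher and 31.6% lower. Dox(−) EBs were higher than islets for 7 genes, lower for Hepacam2 and not different past the threshold for Cdh1 (37.7% and 32.3% of all probes). The islet arrays also carried acinar transcripts, with a summed level of 22.7 to 27.1 in Dox(+) EBs and 5.38 to 5.44 in Dox(−) EBs, against 1866 to 2126 in islets. All 10 acinar probes were above background wherever they had a value on the islet arrays, 8 of them were saturated on both, and 2 of these (Cpb1 and Cela2a) had no value on 1 array, so the islet sum is a lower limit. The part of acinar RNA in the islet levels of the claudins was not tested.

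Compared with E15.5 pancreas, Dox(+) EBs had higher Cldn5, Cldn6, Krt8 and Hepacam2 and lower Cldn3, Cldn7, Epcam and Cdh1 (33.1% of all probes higher, 26.9% lower). Of these, Cldn5 was 1.45-fold higher (adjusted p = 0.0130), a call lost without Dox(+) EB replicate 1 (adjusted p = 0.0992) or without either E15.5 array (adjusted p = 0.0532 and 0.0718). Dox(−) EBs had 6 genes higher and 2 lower, Cldn3 and Hepacam2 (33.6% and 24.8% of all probes).

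Among the references, βTC6 cells were lower than islets for 6 genes and higher for Krt8 and Hepacam2, where 39.1% of all probes were higher and 27.0% lower, and the Hepacam2 difference turned under quantile normalization (log2 0.49 with median scaling, -0.25 with quantile). The 6 lower genes ranged from at least 1.79-fold for Cldn5 to at least 44.1-fold for Cldn4. The Cldn5 call was lost with a floor of 1, where its log2 difference was 0. βTC6 cells were also lower than E15.5 pancreas for 7 genes and higher for Hepacam2 (41.8% of all probes higher, 23.7% lower). Islets were lower than E15.5 pancreas for Cldn3, Cldn5, Cldn6, Cldn7, Epcam and Krt8 and higher for Cldn4 and Hepacam2 (32.5% in each direction). The Cldn4 call (1.28-fold, adjusted p = 0.0330) did not hold without any 1 of the islet or E15.5 arrays, with adjusted p between 0.0596 and 0.172, nor did the Cldn7 call without islet replicate 2 (adjusted p = 0.0678).

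**Figure D2:**
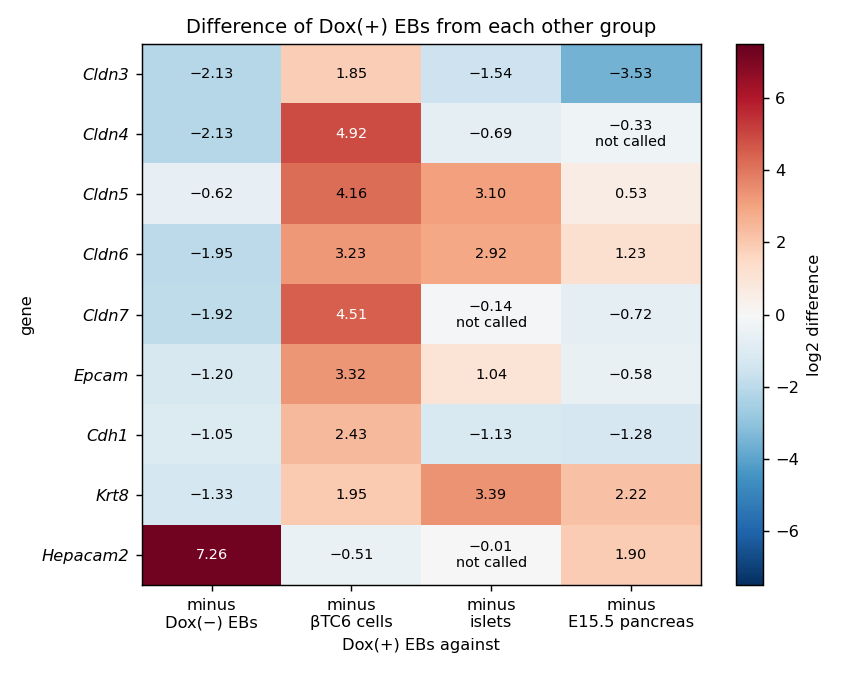
Log2 difference of Dox(+) EBs from each of the other 4 groups (columns) for the 9 genes (rows), with red for higher and blue for lower in Dox(+) EBs; "not called" marks an adjusted p over 0.05. The first column is blue but for Hepacam2 and the second is red but for Hepacam2, whose value there (-0.51) turned to 0.44 under quantile normalization, while the islet and E15.5 columns hold both colours.

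The sequences before the start sites of these genes were read from RefSeq promoter windows of the GRCm38.p6 build, of which the 250 bases before the start were used. Of the 10 genes 9 matched, with 10 entries because Cldn7 has 2 starts, and Cdh1 is named without a sequence. The Hepacam2 window lies within the annotated span of its gene (3457089 to 3498322). So does the window of the second Cldn7 start (gene at 69964779 to 69967886). The Cldn6 window runs a few bases past the annotated start of its gene (23679348). The 6-letter E-box CACCTG, written CAGGTG on the other strand, is the form known to be bound by the Snai and Zeb repressors, which act on the E-cadherin gene among others. It occurred in 7 of the 10 entries, against 17.2% of the 32841 promoters searched in the same way. The entries without it were those of Cldn3, Cldn5 and the first start of Cldn7. Any E-box, CANNTG, which includes the form above, was likewise in 7 entries (66.2% of all promoters), the GC box GGGCGG or CCGCCC in 6 (32.7%), the TATA box TATAAA or TTTATA in 1, that of Hepacam2 (12.4%), and the palindrome AACCGGTT of the grainyhead factors in none (0.116%). The Hepacam2 match to the TATA box lies near the end of its window farthest from the start. Matches are a description of letters, not of binding. The GC content was 40.4% (Hepacam2) to 62.0% (Cldn4) in the 10 entries, and 52.4% at the median of all promoters. The windows below hold the motif in 4 of the genes that fell and in the 1 that rose. Krt8, which also fell, holds 1 copy at 111 bases before the start, and Krt18, which has no value, 1 at 214. These 2 windows are not shown. Bases run 5′ to 3′ on the gene's strand with CACCTG or CAGGTG in capitals.
Cldn4, chr5:134946935-134947184, minus strand: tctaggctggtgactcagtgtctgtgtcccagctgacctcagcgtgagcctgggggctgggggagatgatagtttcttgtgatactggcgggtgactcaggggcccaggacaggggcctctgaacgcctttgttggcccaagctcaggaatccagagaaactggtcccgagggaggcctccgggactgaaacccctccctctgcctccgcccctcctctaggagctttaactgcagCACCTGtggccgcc
Cldn6, chr17:23679115-23679364, plus strand: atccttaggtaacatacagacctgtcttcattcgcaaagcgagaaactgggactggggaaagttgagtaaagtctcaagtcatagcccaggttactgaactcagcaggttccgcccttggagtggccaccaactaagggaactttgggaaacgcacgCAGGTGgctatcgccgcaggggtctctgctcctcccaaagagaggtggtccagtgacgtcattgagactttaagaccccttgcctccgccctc
Cldn7 second start, chr11:69965171-69965420, plus strand: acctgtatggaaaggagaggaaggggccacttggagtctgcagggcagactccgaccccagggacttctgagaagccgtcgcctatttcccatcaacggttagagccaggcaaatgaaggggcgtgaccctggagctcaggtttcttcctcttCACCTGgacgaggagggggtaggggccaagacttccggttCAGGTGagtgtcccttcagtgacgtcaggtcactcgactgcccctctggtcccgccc
Epcam, chr17:87635729-87635978, plus strand: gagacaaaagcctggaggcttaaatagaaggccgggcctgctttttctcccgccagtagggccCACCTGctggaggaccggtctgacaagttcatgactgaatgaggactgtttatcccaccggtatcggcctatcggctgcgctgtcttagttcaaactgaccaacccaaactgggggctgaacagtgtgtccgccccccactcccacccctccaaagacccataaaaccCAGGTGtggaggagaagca
Hepacam2, chr6:3494499-3494748, minus strand: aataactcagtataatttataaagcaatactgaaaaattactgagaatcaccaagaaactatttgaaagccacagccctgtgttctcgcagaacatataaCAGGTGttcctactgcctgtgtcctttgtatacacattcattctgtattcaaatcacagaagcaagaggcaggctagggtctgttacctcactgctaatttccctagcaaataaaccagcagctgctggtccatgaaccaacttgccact
Cldn7 and Epcam each hold 2 copies, at 97 and 57 bases before the start in Cldn7 and at 187 and 19 in Epcam, while Cldn4 holds 1 copy at 14 bases, Cldn6 1 at 93 and Hepacam2 1 at 150. Any part of the motif, or of the Snai and Zeb factors, in the changes with Dox was not tested. The probes of Snai1 (2.21 and 2.05 in Dox(+) EBs, 2.30 and 2.08 in Dox(−) EBs, adjusted p = 0.855) and Zeb2 did not pass the test, whereas Snai2 and Zeb1 fell 1.70-fold and 1.63-fold with Dox.

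The remaining claudins did not follow the 5 above as a group. Of 21 other claudin genes 16 had a probe and 14 were tested. With Dox 5 fell, 3 rose and 6 did not pass, with a median log2 difference of -0.07. Without replicate 2 of either EB group the falls numbered 3. Counts here and in the lists below are to be read against all probes tested, of which 22.5% fell and 20.7% rose. Cldn23 fell 3.36-fold (5.68 and 4.92 in Dox(+) EBs, 18.2 and 17.4 in Dox(−) EBs) and Cldn2, which forms cation pores, at least 3.14-fold. Cldn11, a claudin of myelin and testis, rose 2.68-fold (3.57 and 3.29 in Dox(+) EBs against 1.25 and 1.30 in Dox(−) EBs), and Cldn10 rose 1.77-fold.

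Partners of the claudins in the tight junction mostly moved with the 8 genes that fell. Of 21 measured partners 13 fell, 5 rose and 3 did not pass, with a median of -0.72. Ocln, the membrane protein occludin, had 9.22 and 6.98 in Dox(+) EBs, against 42.6 and 34.4 in Dox(−) EBs, 4.77-fold lower (adjusted p = 2.3e-06). Marveld2, which encodes tricellulin, the occludin relative of 3-cell contacts, was lower by the same 4.77-fold. The polarity genes Pard6a and Pard3 went the other way, by at least 3.32-fold and by 2.10-fold in that order.

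In adherens junctions and desmosomes, 13 of 20 genes fell and 3 rose, with a median of -0.63. Dsp, the desmoplakin that ties keratin filaments to desmosomes, had 6.80 and 5.86 in Dox(+) EBs, against 31.5 and 36.1 in Dox(−) EBs (5.34-fold lower), and Pkp2 of the desmosomal plaque was 3.54-fold lower. Evpl, which encodes envoplakin, rose 3.43-fold and Nectin3 1.83-fold. The E-cadherin partner Ctnnb1 (β-catenin) rose 1.29-fold, while Ctnnd1 (p120 catenin) fell 1.66-fold and Ctnna1 did not pass the test (adjusted p = 0.0511).

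The epithelial list, of keratins, epithelial proteases and regulators, had the lowest median of the 6 lists of junction, epithelial, mesenchymal and adhesion genes: 18 of 22 measured genes fell, none rose and 4 did not pass, with a median of -1.47. Prss8, a membrane-bound serine protease of epithelia, measured 1.30 and 1.15 in Dox(+) EBs against 10.0 and 11.4 in Dox(−) EBs (8.77-fold lower), and the keratin Krt19, also a duct marker, had 9.31 and 10.4 in Dox(+) EBs against 81.9 and 80.5 in Dox(−) EBs (8.26-fold lower). The regulators Grhl2 (4.23-fold) and Esrp1 (3.42-fold), which promote epithelial gene expression and epithelial splicing, also fell.

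Mesenchymal genes did not move opposite to the epithelial ones. Of 18 measured, 10 fell, 3 rose and 5 did not pass, with a median of -0.64. Col1a1, a fibrillar collagen, had 8.28 and 7.73 in Dox(+) EBs, against 127 and 137 in Dox(−) EBs (16.5-fold lower), Lum fell 13.5-fold, and Vim, the mesenchymal intermediate filament, fell 1.49-fold. Twist1 rose 2.39-fold and Cdh11 1.91-fold.

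Immunoglobulin adhesion genes, the wider family of Hepacam2, were split, with 8 of 19 higher, 6 lower, 5 not past the test and a median of -0.05. Nfasc, an adhesion molecule of axons, had 15.1 and 14.2 in Dox(+) EBs and was at background on both Dox(−) EB arrays, a rise of at least 53.5-fold, and the neural adhesion gene L1cam rose 10.3-fold. Vcam1 fell 7.52-fold and Icam1 7.40-fold. Hepacam, the relative after which the family is named, did not pass the test (0.349 and 0.499 in Dox(+) EBs, 0.556 and 0.525 in Dox(−) EBs, adjusted p = 0.131).

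**Figure D3:**
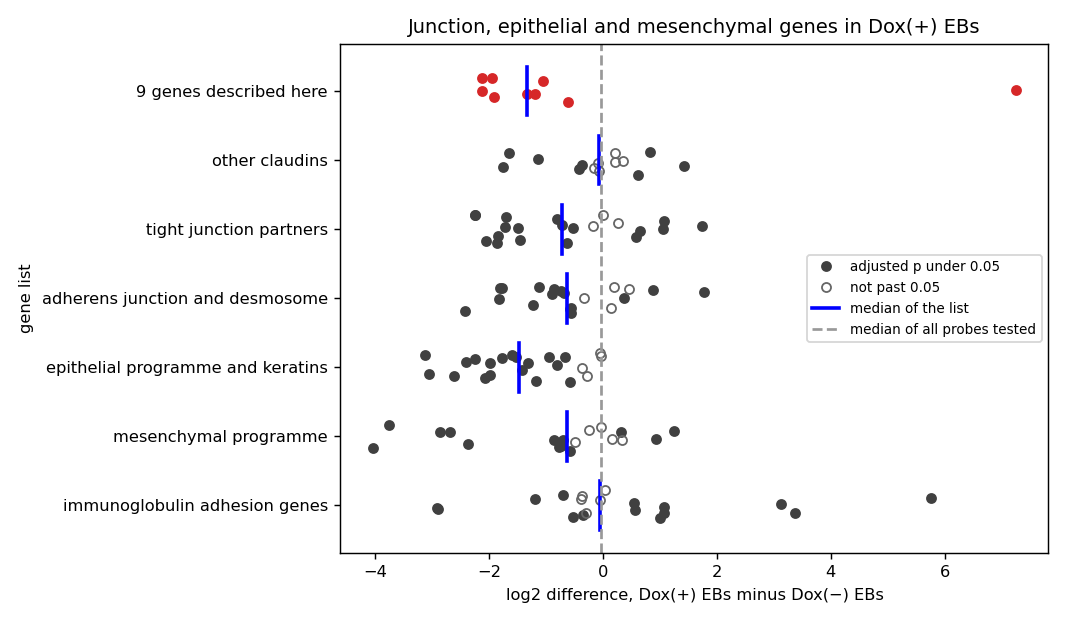
Log2 difference between Dox(+) and Dox(−) EBs (horizontal axis) for the 9 genes (red) and for the measured genes of 6 lists (vertical axis); filled points passed an adjusted p of 0.05, open points did not, blue bars are list medians and the dashed line is the median of all probes tested. The 9 genes have a median of -1.33 and the epithelial list -1.47, while the other claudins (-0.07) and immunoglobulin adhesion genes (-0.05) centre near the dashed line. Many of the other claudins had low levels in both EB groups, which limits how far they could fall.

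Counts of cell type markers called with Dox are to be read against all probes tested, of which 22.5% were lower and 20.7% higher. The pluripotency counts below lie near these shares. Of 13 liver and gut endoderm markers 9 fell and 3 rose, with a summed level of 258 to 278 in Dox(+) EBs, where Ttr was saturated, and 710 to 735 in Dox(−) EBs, where Afp was. Much of the Dox(+) sum was from Ttr (186 and 179, against 136 and 126 in Dox(−) EBs). Ttr was also saturated in βTC6 cells (382) and islets (290), each with a value on 1 array. Alb, the serum albumin gene, fell 43.5-fold and the intestinal factor Cdx2 13.2-fold, whereas the endoderm factors Foxa2 and Sox17 rose 3.40-fold and 2.13-fold. Of 7 duct markers tested 4 fell and none rose, Krt19 as given above and Onecut1 by 3.35-fold, with sums of 51.9 to 55.3 in Dox(+) EBs and 145 to 148 in Dox(−) EBs. Most of the drop in the sum was from the keratins Krt19 and Krt7 (30.5 and 28.9 in Dox(+) EBs, 49.0 and 44.9 in Dox(−) EBs), both also in the epithelial list. Sox9 had 3.37 and 2.91 in Dox(+) EBs against 2.58 and 4.01 in Dox(−) EBs. Acinar markers went the other way, with 6 of 10 higher, none lower and 4 not past the test. Cpa1, a carboxypeptidase gene, rose 32.5-fold and Cela1, an elastase gene, 3.37-fold. The 10 islet endocrine markers rose as given above, with the largest rises in Sst (at least 406-fold) and Scg3 (245-fold). Of 7 pluripotency markers tested 2 fell (Pou5f1 by 1.80-fold and Lin28a by 1.35-fold), 1 rose (Dppa5a, at least 1.37-fold) and 4 did not pass, with sums of 19.8 to 20.1 in Dox(+) EBs and 23.5 to 23.6 in Dox(−) EBs, much of them from Tdgf1 (12.0 and 11.8 in Dox(+) EBs, 13.0 and 12.8 in Dox(−) EBs, not past the test). The part of these cell types in the falls of the claudins, Epcam, Cdh1 and Krt8 was not tested.

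The genes whose log2 levels over the 10 arrays were most like each of the 9 differed from gene to gene. Among 17446 probes, those with the highest Pearson r were Igf1 for Cldn3 (r = 0.997), Mtus1 for Cldn4 (0.991), Fbln1 for Cldn5 (0.997), Lpar2 for Cldn6 (0.994), Txnip for Cldn7 (0.993), Acta2 for Epcam (0.997), Chmp4c for Cdh1 (0.996), Cebpzos for Krt8 (0.994) and Myt1 for Hepacam2 (0.994). The arrays of a group are replicates, so each r rests on 5 groups and is given as a description. Next in order were Gimap4 and Pik3ap1 for Cldn3, Cldn7 (r = 0.989) and Gmfg for Cldn4, Ccdc102a and Wwtr1 for Cldn5, Car14 and Rhbdf2 for Cldn6, Gmfg and Sparc for Cldn7, Fcgrt and Pmp22 for Epcam, Gsn and Spint2 for Cdh1, and Slc35e3 and Fbxo6 for Krt8. Cldn7 was thus the 1 gene of the 9 among the 3 most alike of another, and Gmfg was shared by Cldn4 and Cldn7. The Spint2 probe was saturated on both E15.5 arrays. Next for Hepacam2 came Pax6 (0.993) and Sst (0.992), a transcription factor and a hormone of endocrine cells. Sst had 120 and 103 in Dox(+) EBs and was at the floor in Dox(−) EBs, while βTC6 cells had 211 and 229, islets 291 and 286, and E15.5 pancreas 26.2 and 26.6. The Sst probe was saturated on both islet arrays, so the islet levels are lower limits, and its r with Hepacam2 includes them.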

How the data were processed

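The authors scanned CodeLink Mouse Whole Genome arrays with CodeLink Expression Analysis 4.1.0.29054 and deposited an intensity per spot: the spot mean minus the local background median, divided by the array median over 34967 discovery probes. These scaled intensities were used as deposited. The 1260 control spots were left out, masked, contaminated and irregular spots were treated as missing, and saturated spots stayed in. Probes were named through gene IDs and a GRCm38.p6 symbol table (21615 probes with 1 symbol, 681 with several, 12671 with none).

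Values under 0.27 were set to this floor. On the log2 scale, limma 3.58.1 in R 4.3.3 fitted 1 mean per group to all 10 arrays (robust eBayes with trend, 5 residual degrees of freedom). In some group, each of the 28109 probes tested was above background on the 2 arrays, with Benjamini-Hochberg adjustment over all of them and a threshold of 0.05. Folds are given as bounds where neither array of the lower group was above background, taking on each of its arrays the higher of the floored level and the lowest signal above background. The number of arrays limits the precision. The fit was tested on simulated data.

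The members, gene lists and tests were chosen with earlier results of these data known. Named are the 9 genes, of each list the 2 largest rises and falls past the threshold, and the 3 probes most alike by Pearson r; further list members (such as Cldn9, the Snai and Zeb genes, the catenins, Grhl2, Esrp1, Vim and Hepacam) were added with their values in view. The alternatives tried were floors of 0.1 and 1, quantile normalization alone or after normexp (offset 50), other background filters, a 2-fold minimum, plain eBayes, the replicate block, arrays of 1 slide range alone, spots kept, and leaving out each array in turn. Figures were made with Python 3.11.15 and matplotlib 3.10.9.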

Additional observations from a re-analysis of the deposited data

How the results depend on the processing

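The 8 falls and the rise of Hepacam2 with Dox kept their direction under every alternative that could test them, and their calls too except those of Cldn5 given above and its loss under the 2-fold minimum. With probes above background on all arrays, Cldn4, Cldn5 and Hepacam2 were not tested, which left 0 members higher with Dox, 0 lower than in βTC6 cells, 2 higher than in E15.5 pancreas, 0 higher in islets than in E15.5 pancreas and 1 higher in βTC6 cells than in islets; the falls then counted were 2 other claudins, 8 tight junction partners, 11 epithelial and 5 mesenchymal genes, and 4 immunoglobulin genes rose. A 2-fold minimum left 3998 probes called with Dox, 8561, 9620 and 6972 for Dox(+) EBs against βTC6 cells, islets and E15.5 pancreas, 8915 for islets against E15.5 pancreas and 9626 for βTC6 cells against islets, with 1 other claudin higher and 3 lower, 3 tight junction partners higher, 1 adherens gene higher and 6 lower, 1 mesenchymal gene higher and 5 lower, 3 immunoglobulin genes lower, 0 members lower than in βTC6 cells, 2 lower than in E15.5 pancreas, 1 higher in islets than in E15.5 pancreas and 1 higher in βTC6 cells than in islets. With a floor of 1, 2 other claudins fell. That floor, no background filter and plain eBayes each left 1 member higher in islets than in E15.5 pancreas. Leaving out 1 array at a time gave 1 to 2 such members and 3 to 5 other claudins lower with Dox, the 3 without replicate 2 of either EB group.

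Quantile normalization, alone or after normexp, gave 0 members lower for Dox(+) EBs minus βTC6 cells and 1 higher in βTC6 cells than in islets, because Hepacam2 changed sign: 0.44 by either method for Dox(+) EBs minus βTC6 cells and -0.25 by either for βTC6 cells minus islets. It moved the median of all probes from -0.11 to 0 in the first of these comparisons and from 0.12 to 0 in the second, and the share of higher calls for βTC6 cells minus E15.5 pancreas from 63.8% to 53.2%. Hepacam2 in Dox(+) EBs minus islets, not called, was 0.19 by both methods and -0.086 to 0.060 with 1 array left out (0.060 without Dox(+) EB replicate 2, 0.018 without islet replicate 1), and Cldn7 there was -0.30 to 0.027. Same-numbered replicates did not deviate together (correlations of -0.07 to 0.06), and the replicate block called 11870 probes with Dox, against 12154 without it, with the same 8 members lower and 1 higher. No member has another probe, so that alternative gave no value; the members' calls for Dox(−) EBs against the references were recomputed under the scaling alternatives alone.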

Other observations

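Some claudins outside the 10 genes had their highest level in the pancreatic material, and these were picked after their values were seen. For Cldn10, Dox(+) EBs had levels of 2.02 and 2.40, Dox(−) EBs 1.33 and 1.16, βTC6 cells 1.02 and 1.09, islets 6.46 and 5.69, and E15.5 pancreas 115 and 111. Cldn1 was highest in βTC6 cells, at 4.06 and 6.26, where Dox(+) EBs had 0.725 and 0.634, Dox(−) EBs 0.485 and 0.401, islets 0.454 and 0.537, and E15.5 pancreas 0.875 and 0.881. Patj, a scaffold of the apical polarity complex, was likewise highest in βTC6 cells, at 36.7 and 30.4, where Dox(+) EBs had 5.31 and 4.65, Dox(−) EBs 13.7 and 14.5, islets 14.7 and 14.2, and E15.5 pancreas 13.3 and 11.6.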
